A study of Macaca fascicularis with 11 samples.

Results

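The 8 genes described here act in the extracellular matrix and are not collagens: secreted matrix proteins, an enzyme that makes a matrix polysaccharide and an enzyme that cross-links matrix proteins. They were taken by name as the rows of the count matrix for LUM (ENSMFAG00000036088), VCAN (ENSMFAG00000032675), NID2 (ENSMFAG00000036323), POSTN (ENSMFAG00000045597), CCDC80 (ENSMFAG00000001224), HAS2 (ENSMFAG00000032874), LOX (ENSMFAG00000043699) and FBN2 (ENSMFAG00000041645), which are 8 of the 19367 genes measured. All 8 were found. The cells came from cynomolgus macaque (Macaca fascicularis) embryos that were thawed as frozen blastocysts, cultured in vitro in IVC1 and then IVC2 medium, dissociated whole at Day 10, Day 12 or Day 14, and profiled by droplet-based single-cell RNA sequencing of the 3′ ends of transcripts. The 6 wild-type libraries (12 embryos, 2 libraries per day) were compared with 5 libraries of ISL1 hypomorphic mutants (11 embryos), of which 1 was from Day 10, 2 from Day 12 and 2 from Day 14. The mutants had been injected as zygotes with SpCas9 and 2 guide RNAs against ISL1. They were mosaic, and a minority of their deletions were in frame. Each library held 1 to 3 embryos, those of a pool cannot be separated, and each library is labelled batch 1 or batch 2. The Day 12 wild-type library of batch 1 held 1 embryo. The Day 12 and Day 14 mutant libraries of batch 2 also held 1 embryo each. Values are given for batch 1 first.

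The 11 libraries held 33330 cells, of which 31209 were in clusters named as 1 of 7 types from marker genes. Of the rest, 1366 were in clusters with no name and 755 were epiblast-derived cells that got no type name. The names are extraembryonic mesenchyme-like (ExE-Mech-like), endoderm-like, trophoblast-like, epiblast-like (Epi-like), amnion-like, mesoderm-like and transition-like, the last being cells with marker genes of the passage from epiblast to mesoderm. None of the 8 genes was among the variable genes that built the clusters or the markers that named them. They could be among the 10 leading genes of a cluster, which were checked before a name was kept. Levels are given as CPM, the UMIs (counted transcript molecules) of a gene in a sum of cells scaled to a common total. The 10 ExE-Mech markers summed to 3321 to 5198 CPM in ExE-Mech-like cells, against at most 1640.2 CPM in any other named type. The 10 endoderm markers summed to 49668 to 83799 CPM in endoderm-like cells and to at most 551 CPM in the other named types. The embryonic types were less distinct. Transition markers summed to 379 to 1478 CPM in transition-like cells, against 296 to 1266 CPM in Epi-like ones, and mesoderm markers to 474 to 3941 CPM in mesoderm-like cells, against 491 to 1538 CPM in endoderm-like ones. Amnion markers summed to 271 to 1598 CPM in amnion-like cells, against 137 to 701 CPM in transition-like ones. Median depth ran from 10916 UMIs per cell in the Day 14 mutant library of batch 1 to 142180 in the Day 12 wild-type library of batch 1. At Day 12 and Day 14 all mutant libraries (10916 to 23378 UMIs) were shallower than all wild-type ones (24720 to 142180). Genotype and library depth therefore cannot be told apart on these days. The Day 10 mutant library (99406 UMIs) was deeper than both Day 10 wild types. Amnion-like cells had 144 and 211 CPM of ISL1 itself in the wild-type libraries of Day 14, and 299.7 and 188 CPM in the mutant ones. Where these 3′ counts lie relative to the deletion was not examined, so they do not check the genotype.

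The extracellular matrix is the secreted meshwork that surrounds cells and separates epithelia from the tissue beneath. Fibrous matrix is laid down by mesenchymal cells and is built on collagen fibrils and on microfibrils of fibrillins. Its packing is set by small proteoglycans, by cross-linking enzymes and by proteins that bridge collagen and cells, and its spaces are filled with hyaluronan and the large proteoglycans that bind it. Sheet-like basement membrane, in contrast, lies under epithelia and endoderm and holds laminin, type IV collagen and nidogens. In primate embryos the extraembryonic mesenchyme fills the space around the amnion, yolk sac and chorion early, and it contributes to the connecting stalk. The study itself named VCAN, NID2, POSTN, CCDC80 and FBN2 among markers of ExE-Mech, HAS2 among markers of a mesoderm population, LUM and NID2 among genes shared by ExE-Mech and endoderm, VCAN among genes that rose as the epiblast matured, and LUM, LOX and HAS2 among genes that differed in the mutants, on these same cells, so the levels and tests that follow are not independent evidence of those choices.

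Each level is for the cells of 1 type in 1 library, and a library is the unit of replication. Sums of fewer than 5 cells were left out. ExE-Mech-like cells were present in 8 libraries (59 to 2475 cells) and endoderm-like cells in 11 (11 to 134 cells). The 8 include the Day 10 mutant library, with 59 cells. The study, in contrast, reported ExE-Mech first at Day 12 and called the mesoderm-like cells of Day 10 likely extraembryonic mesoderm. Whether these 59 cells are ExE-Mech was not tested. In the 8 libraries with ExE-Mech-like cells, POSTN, CCDC80 and FBN2 were highest in those cells in 8 of 8, and LUM in 6 of 8. VCAN was highest in endoderm-like cells in 7 of 8 and NID2 in 5 of 8. HAS2 had its highest level in mesoderm-like cells in 3 libraries and in transition-like cells in 3 others. The Day 12 and Day 14 mutant libraries of batch 2 had too few mesoderm-like cells for a sum (4 and 1). The first of them was among the transition-like ones, with 7 cells. The highest sums of the Day 12 and Day 14 wild types of batch 2 were also small, with 9 transition-like and 6 mesoderm-like cells. The 8 genes therefore did not share 1 order of cell types.

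**Figure D1:**
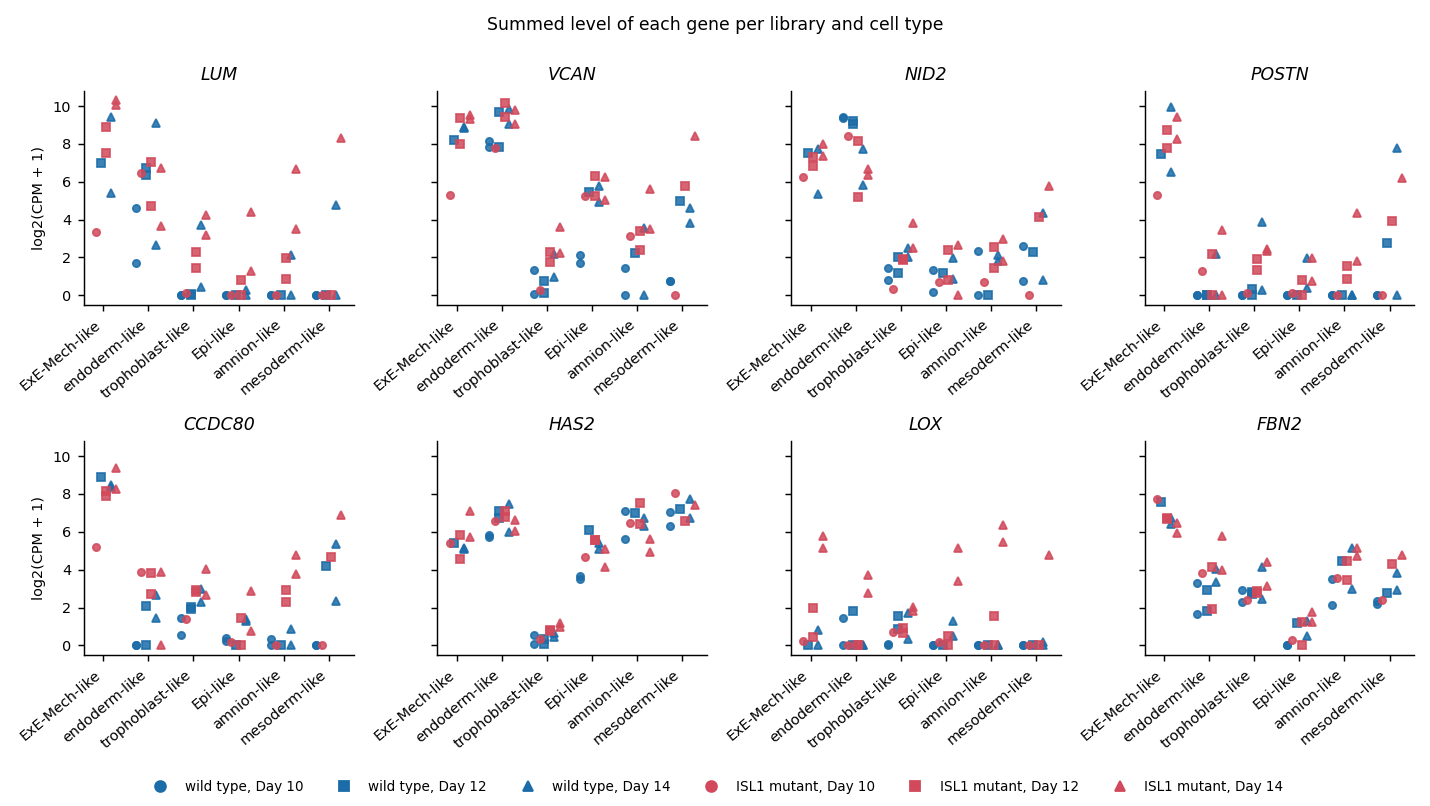
Level of each gene as log2(CPM + 1), a logarithmic scale, in 6 named cell types; each point is 1 library, with colour for genotype and shape for day. POSTN, CCDC80 and FBN2 stand highest in ExE-Mech-like cells, VCAN is highest in endoderm-like cells in 7 of 8 libraries and NID2 in 5 of 8, and LOX has its highest values in the Day 14 mutant libraries.

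POSTN encodes periostin, a secreted protein that binds collagen and integrins. In ExE-Mech-like cells it measured 176 CPM in the Day 12 wild-type library and 91.0 and 976 CPM in the Day 14 wild-type libraries. The mutants had 38.2 CPM at Day 10, 219 and 432 CPM at Day 12, and 300.3 and 678 CPM at Day 14. The wild-type Day 14 libraries lay on either side of every Day 12 and Day 14 mutant value, so their ranges overlapped. In endoderm-like cells POSTN was at 0 in 7 of 11 libraries and reached at most 9.82 CPM, or 8 UMIs. The summed level in mesoderm-like cells was low in most libraries but was 216 CPM in the 6 cells of the Day 14 wild-type library of batch 2, where all 33 UMIs were in 1 cell.

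CCDC80 encodes a secreted matrix-associated protein. ExE-Mech-like cells had 481 CPM in the Day 12 wild-type library, 328 and 359.6 CPM in the Day 14 wild-type libraries, 35.4 CPM in the Day 10 mutant library, 281 and 239 CPM in the Day 12 mutants, and 659 and 302 CPM in the Day 14 mutants. Apart from the Day 10 library, with 59 cells, the values spanned less than those of POSTN or LUM. Endoderm-like cells had 0 to 13.6 CPM.

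FBN2 encodes fibrillin 2, the fibrillin of early microfibrils. Its level in ExE-Mech-like cells was 188 CPM in the Day 12 wild-type library, 85.2 and 105 CPM in the Day 14 wild-type libraries, 210.2 CPM in the Day 10 mutant library, 104 and 101 CPM in the Day 12 mutants, and 60.3 and 86.6 CPM in the Day 14 mutants. The Day 10 mutant library had the highest FBN2 value of the 8 libraries, and the lowest values of POSTN, CCDC80, VCAN and LUM. Amnion-like cells also carried FBN2, at 3.39 to 34.7 CPM over 10 libraries, while Epi-like cells had 0 to 2.34 CPM. In the trophoblast-like cells, FBN2 reached 2.03 to 33.2% of its ExE-Mech-like level in the same library, while POSTN reached 0.146 to 1.46%, LUM 0.0293 to 1.79%, VCAN 0.192 to 1.75%, HAS2 0.621 to 3.08%, CCDC80 0.651 to 4.70% and NID2 0.352 to 11.5%. FBN2 was not above them in every library, since CCDC80 had the higher percentage in the Day 10 mutant library and NID2 in the Day 14 wild-type library of batch 1. LOX, at low levels, reached 5.77 to 401% in the 6 libraries with a LOX UMI in ExE-Mech-like cells, above FBN2 in 4 of them.

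Within a library, ExE-Mech-like and endoderm-like cells share embryos, day and batch. The question of which members separate these cell types was therefore tested with the library as a block (edgeR quasi-likelihood test, sums of 8 libraries, Benjamini-Hochberg adjustment over the 9873 genes tested, false discovery rate 1%). Of the 7 members tested, 3 were higher in ExE-Mech-like cells, 1 was lower and 3 did not pass; LOX had too few counts to be tested. Between these cell types 39.4% of all tested genes were called, 21.2% higher and 18.2% lower in ExE-Mech-like cells, so a count of 4 in 7 is near the background. The median log2 difference of the 7 members was 1.59, and that of all genes 0.07.

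The log2 difference was 6.64 (SE 0.39, edgeR adjusted p = 8.83e-08) for POSTN, 5.10 (SE 0.57, adjusted p = 1.3e-05) for CCDC80 and 3.11 (SE 0.35, adjusted p = 1.24e-05) for FBN2. Each of these 3 was higher in ExE-Mech-like cells in 8 of 8 libraries and stayed past the threshold whichever library was left out. HAS2 was lower in ExE-Mech-like cells, with a log2 difference of -1.21 (SE 0.30, edgeR adjusted p = 0.00449; adjusted p = 0.038 without the library block). It was lower in 7 of 8 libraries, the exception being the Day 14 mutant library of batch 2, and the call was lost (adjusted p up to 0.0171) when the Day 12 mutant library of either batch, the Day 12 wild-type library or the Day 14 wild-type library of batch 1 was left out. LUM differed by 1.59 (SE 1.18, edgeR adjusted p = 0.28), VCAN by -0.79 (SE 0.26, adjusted p = 0.0235) and NID2 by -0.20 (SE 0.43, adjusted p = 0.734), none of which passed.

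**Figure D2:**
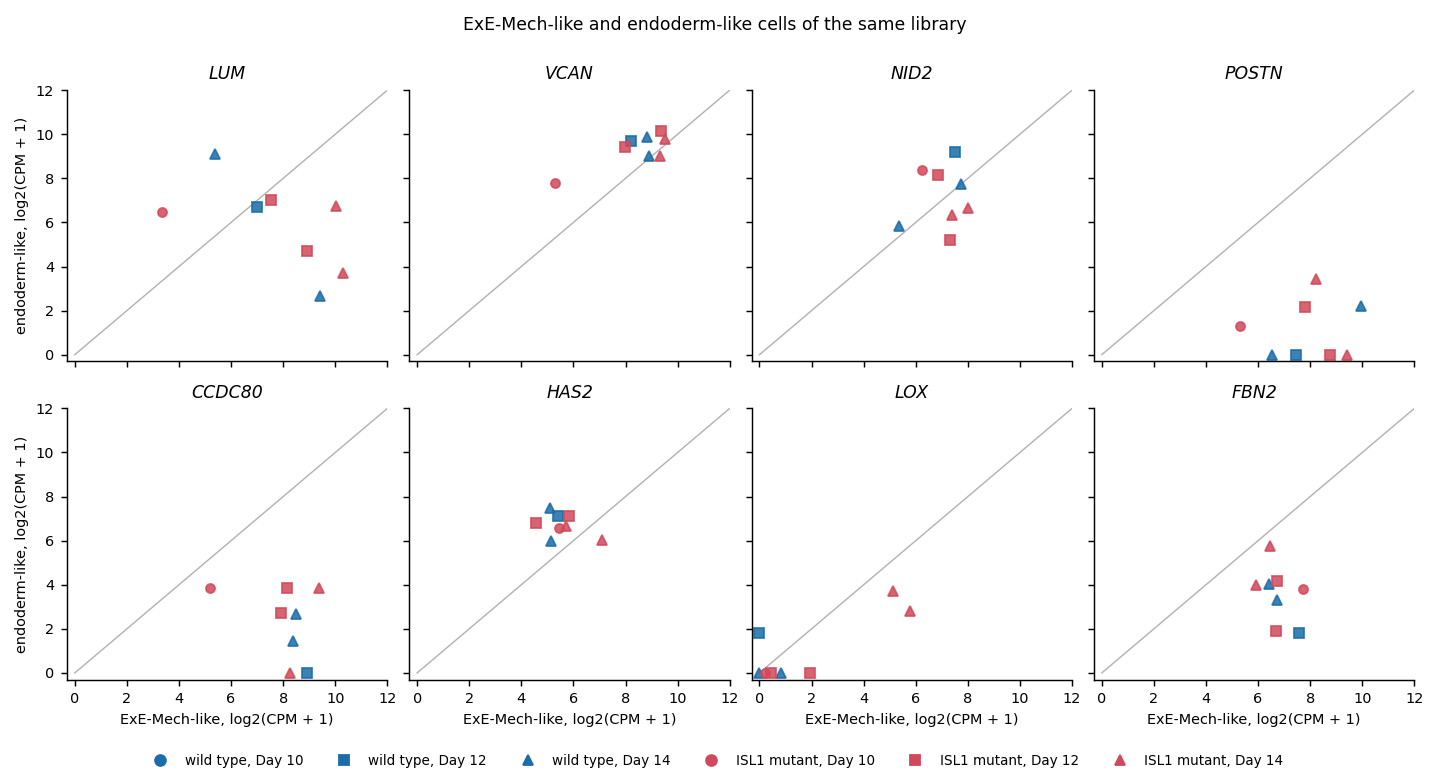
Level in ExE-Mech-like cells (horizontal axis) against level in endoderm-like cells (vertical axis) of the same library, both as log2(CPM + 1); each point is 1 of 8 libraries and the grey line marks equal levels. POSTN, CCDC80 and FBN2 lie below the line in 8 of 8 libraries, while LUM and NID2 fall on both sides of it.

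VCAN encodes versican, a large proteoglycan that binds hyaluronan. In endoderm-like cells it was 228 and 288 CPM in the Day 10 wild-type libraries, 231 and 829 CPM at Day 12, and 522 and 934 CPM at Day 14. The mutants had 219 CPM at Day 10, 675 and 1131 CPM at Day 12, and 522 and 884 CPM at Day 14. The Day 14 values lay above those of Day 10 in both genotypes, without overlap, but the wild-type difference did not pass the test (log2 difference 1.45, SE 0.49, edgeR adjusted p = 0.322). In ExE-Mech-like cells VCAN was 293 CPM in the Day 12 wild-type library, 480.3 and 449 CPM in the Day 14 wild-type libraries, 38.2 CPM in the Day 10 mutant library, 254 and 653 CPM at Day 12 and 637 and 736 CPM at Day 14 in the mutants. VCAN was thus carried by ExE-Mech-like and endoderm-like cells at levels that overlapped.

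NID2 encodes nidogen 2, a basement membrane protein that links laminin and type IV collagen. In endoderm-like cells of wild-type embryos it was 675 and 659 CPM at Day 10, 535 and 590.0 CPM at Day 12, and 56.7 and 213 CPM at Day 14. The mutants had 337 CPM at Day 10, 279 and 36.0 CPM at Day 12, and 79.8 and 101 CPM at Day 14. Both wild-type Day 14 libraries lay below all 4 earlier wild-type libraries, and both Day 12 mutant libraries lay below both Day 12 wild-type libraries. Neither the wild-type difference between Day 14 and Day 10 (log2 difference -2.41, SE 0.69, edgeR adjusted p = 0.208) nor the genotype difference at Day 14 (-0.54, SE 0.72, adjusted p = 0.932) passed the test. In the first of these comparisons 0.0205% of genes were called (0.0102% higher and 0.0102% lower), with 943 of 9778 genes at an unadjusted p below 0.05 and 35 genes called by DESeq2, and no member was called by either tool (7 genes were called with the batch as a block). In ExE-Mech-like cells NID2 ranged from 40.3 to 257 CPM. At Day 14 the ExE-Mech-like cells of wild type had 40.3 and 212 CPM, close to the endoderm-like cells of the same libraries, and those of the mutants had 166 and 257 CPM, above them.

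LUM encodes lumican, a small leucine-rich proteoglycan of collagen fibrils. Its level differed widely between libraries of the same group. ExE-Mech-like cells had 126 CPM in the Day 12 wild-type library, 41.1 and 677 CPM in the Day 14 wild-type libraries, 9.12 CPM in the Day 10 mutant library, 182 and 478 CPM in the Day 12 mutants, and 1049.8 and 1258 CPM in the Day 14 mutants. Both Day 14 mutant values lay above both Day 14 wild-type values, but the wild-type libraries lay far apart and the difference did not pass the test (log2 difference 1.83, SE 1.07, edgeR adjusted p = 0.412).

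Endoderm-like cells showed the opposite order of the Day 14 wild-type batches. They had 540.5 CPM of LUM in batch 1 and 5.42 CPM in batch 2, with a UMI in 38 of 48 cells (79.2%, 95% Clopper-Pearson interval 65.0 to 89.5%) and in 3 of 35 cells (8.57%, 1.80 to 23.1%), at median depths of 34846 and 15133 UMIs per cell. Trophoblast-like cells of these libraries, in which LUM is not a marker, had a UMI in 1.11% and 3.83% of cells at median depths of 49408 and 27656 UMIs. At a common depth of 5000 UMIs per cell, with 1 endoderm-like cell too shallow, the expected shares were 65.4% and 2.74% for endoderm-like cells, against 0.123% and 1.59% for trophoblast-like cells. The remaining endoderm-like sums were 23.9 and 2.25 CPM in the Day 10 wild types, 81.0 and 104 CPM in the Day 12 wild types, 88.6 CPM in the Day 10 mutant, 129.7 and 25.0 CPM in the Day 12 mutants and 106 and 11.9 CPM in the Day 14 mutants. Intervals and shares cover counting error only.

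**Figure D3:**
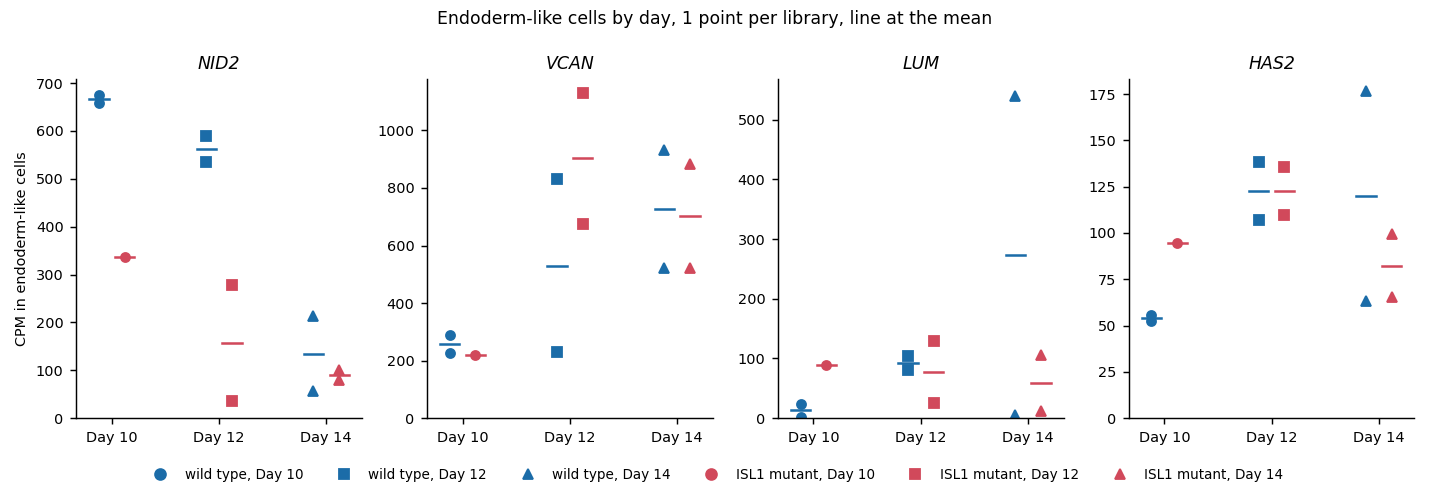
CPM of NID2, VCAN, LUM and HAS2 in endoderm-like cells by day; each point is 1 library, the horizontal line is the mean of the group, and the vertical axes start at 0 and differ between genes. In wild type NID2 is lowest at Day 14, and the Day 14 wild-type libraries lie far apart for LUM (540.5 and 5.42 CPM).

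HAS2 encodes the synthase that makes most hyaluronan in the embryo. Mesoderm-like cells had 129.7 and 77.4 CPM in the Day 10 wild types, 145 CPM in the Day 12 wild type of batch 2, 216 and 105 CPM in the Day 14 wild types, 263 CPM in the Day 10 mutant, 93.0 CPM in the Day 12 mutant of batch 1, and 169 CPM in the 8 mesoderm-like cells of the Day 14 mutant of batch 1. The remaining libraries held fewer than 5 such cells. Transition-like cells ranged from 42.7 to 308 CPM, amnion-like cells from 29.2 to 184 CPM, endoderm-like cells from 52.2 to 177 CPM, ExE-Mech-like cells from 22.5 to 137 CPM and Epi-like cells from 10.5 to 68.1 CPM. These ranges overlapped from each type to the next in that order. Trophoblast-like cells stood apart, at 0.0369 to 1.27 CPM. HAS2 was thus present in mesoderm-like, transition-like, amnion-like, endoderm-like, ExE-Mech-like and Epi-like cells, but was nearly missing in trophoblast-like cells.

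The amnion-like cells of the Day 14 mutants had 48.3 and 29.2 CPM of HAS2, below the 106 and 78.2 CPM of the Day 14 wild types. The groups did not overlap, and the difference did not pass the test (log2 difference -1.31, SE 0.54, edgeR adjusted p = 0.228). In ExE-Mech-like cells the order was the opposite, with 51.5 and 137 CPM in the Day 14 mutants and 33.1 and 34.2 CPM in the wild types, and that difference did not pass either (1.61, SE 0.60, edgeR adjusted p = 0.261).

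Among the embryonic types, Epi-like cells were the one compared between days. From Day 10 to Day 14 in wild type, 2 of 7 members tested rose, where 2.15% of all genes were called and 1.03% were called higher and 1.12% lower. VCAN was 3.34 and 2.31 CPM at Day 10 and 53.0 and 29.4 CPM at Day 14 (log2 difference 4.01, SE 0.46, edgeR adjusted p = 8.83e-05). HAS2 was 11.5 and 10.5 CPM at Day 10 and 33.6 and 41.1 CPM at Day 14 (1.73, SE 0.31, adjusted p = 0.00317). In both genes the 2 days did not overlap. VCAN lost its call without the Day 14 wild-type library of batch 1 (adjusted p = 0.031). HAS2 lost its call without the Day 10 wild-type library of either batch (adjusted p = 0.0173 and 0.0706) and without the Day 14 one of batch 1 (adjusted p = 0.0595), with log2 differences from 1.64 to 1.89.

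The Day 10 mutant library already had 37.0 CPM of VCAN and 24.4 CPM of HAS2 in its 175 Epi-like cells. Both values lay above the Day 10 wild types, and that of VCAN lay within the range of the Day 14 wild types. There is 1 mutant library at Day 10, so this difference has no replicate check and was not tested. At Day 12, Epi-like cells had 43.7 CPM of VCAN in the wild-type library of batch 2 and 36.4 and 79.0 CPM in the mutants. At Day 14 the mutants had 75.5 and 32.1 CPM, and the genotype difference of VCAN did not pass the test (log2 difference 0.39, SE 0.40, edgeR adjusted p = 0.696).

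LOX encodes lysyl oxidase, the enzyme that cross-links collagen and elastin. Of the 8 members it was the 1 with levels near 0 in nearly all libraries except the mutants of Day 14. Over the named cell types it reached at most 1.69 CPM in the Day 10, 2.47 CPM in the Day 12 and 2.32 CPM in the Day 14 wild types, and 0.62 CPM in the Day 10 and 2.88 CPM in the Day 12 mutants. In the Day 14 mutants it reached 82.0 CPM.

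In ExE-Mech-like cells of Day 14 the wild-type libraries had 0.776 CPM (7 UMIs) and 0 CPM of LOX, and the mutants 34.3 CPM (981 UMIs) and 54.0 CPM (1202 UMIs). Amnion-like cells had no LOX UMI in the wild-type libraries (54 cells) and 43.2 CPM (17 UMIs) and 82.0 CPM (59 UMIs) in the mutants, at least 34.2-fold higher when set against a floor of 3 counts over both wild-type libraries. Epi-like cells had 0.404 CPM (4 UMIs) and 1.47 CPM (1 UMI) in the wild types, and 34.5 CPM (59 UMIs) and 9.76 CPM (14 UMIs) in the mutants. In each of these 3 types both mutant libraries were above both wild-type libraries. Endoderm-like cells had no LOX UMI in the wild types and 12.3 CPM (10 UMIs) and 5.93 CPM (1 UMI) in the mutants. Trophoblast-like cells had 0.278 and 2.32 CPM in the wild types and 2.56 and 3.12 CPM in the mutants, so that both mutant libraries were above both wild types here too, at low levels and with the wild types far apart.

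FBN2 in Epi-like, NID2 in amnion-like and LOX in mesoderm-like cells had too few counts to be tested. The genotype difference of LOX at Day 14 passed the test in Epi-like cells, where it rose by a log2 difference of 5.47 (SE 0.88, edgeR adjusted p = 0.0034). It was the 1 member called of 7 tested, where 0.809% of 11494 genes were called and 0.722% were called higher and 0.087% lower. The call was lost without the Day 14 mutant library of batch 1 (adjusted p = 0.048) and without the Day 14 wild-type library of batch 1 (adjusted p = 0.18), with 3 other settings for naming the cells (adjusted p = 0.014 to 0.0146), and where libraries needed at least 20 such cells (adjusted p = 0.0154). With the batch as a block, 172 genes were called, LOX (adjusted p = 0.000449) and LUM among them. LUM stood at 20.5 CPM (35 UMIs, in 8 cells) and 1.39 CPM (2 UMIs) in the mutants and 0.202 CPM (2 UMIs) and 0 CPM in the wild types (edgeR adjusted p = 0.002 with the block and 0.0285 without it). The 1.39 CPM lay below the 4.40 CPM that the 0 of the batch 2 wild type allows. Only the mutant library of batch 1 was therefore clearly above the wild types in LUM.

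The Epi-like cells of Day 14 were spread unequally over their clusters. Of the 157 Epi-like cells of the mutant library of batch 1, 91 fell into cluster 3 (led by IGFBP2, MT3 and NPPB) and 42 into cluster 11, which held 2 wild-type cells each, while the wild-type cells were mainly in clusters 1, 7, 10 and 12. Of the 31 Epi-like cells of the mutant library of batch 2, 16 were in cluster 1. In the Day 14 mutant library of batch 1, LOX was 63.5 CPM in the 91 cells of cluster 3, with a UMI in 25 of them, and 0 CPM in the 42 cells of cluster 11. LUM had the reverse order, at 2.35 CPM in cluster 3 and 53.9 CPM in cluster 11. ExE-Mech markers summed to 143 and 192 CPM in the mutant Epi-like cells and to 104 and 258 CPM in the wild-type ones. LOX in the Epi-like cells was 100.6% and 18.1% of its ExE-Mech-like level in the same mutant library, against 1.95% and 0.111% for LUM and 0.974% and 0.103% for POSTN.

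In ExE-Mech-like, amnion-like and endoderm-like cells the genotype difference of LOX did not pass (edgeR adjusted p = 0.148, 0.0319 and 0.61). In ExE-Mech-like cells 0% of 12796 genes were called at Day 14, with 2158 genes at an unadjusted p below 0.05 and 215 genes called by DESeq2, no member among them. The median log2 genotype difference of the 8 members there was 0.77, and that of all genes 0.06. In amnion-like cells 0.0225% of 8876 genes were called (0.0113% higher and 0.0113% lower) and no member, with 1612 genes at an unadjusted p below 0.05 and 61 genes called by DESeq2. In endoderm-like cells 0% of 9778 genes were called, with 688 at an unadjusted p below 0.05 and 18 called by DESeq2. The Day 14 mutant ExE-Mech-like cells also lay above the Day 12 mutants (0.364 and 2.88 CPM of LOX), and that difference did not pass (log2 difference 4.80, SE 0.95, edgeR adjusted p = 0.137, with 0% of genes called).

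The share of ExE-Mech-like cells with a LOX UMI was also higher in the mutants. It was 20.7% of 2475 and 42.6% of 1073 ExE-Mech-like cells in the Day 14 mutants, against 1.86% of 161 and 0 of 347 cells in the wild types, the latter allowing a share of up to 0.865%. In trophoblast-like cells it was 1.93% and 4.25% in the mutants and 0.897% and 2.25% in the wild types, which overlap. At 5000 UMIs per cell, with 217 and 2 mutant cells too shallow, the expected shares were 13.5% and 20.0% in mutant ExE-Mech-like cells and 0.928% and 0.941% in mutant trophoblast-like cells, against 0.267% and 0% in wild-type ExE-Mech-like cells and 0.142% and 0.657% in wild-type trophoblast-like cells. Median depth was 10231 and 18925 UMIs in mutant ExE-Mech-like cells and 53020 and 19912 UMIs in wild-type ones.

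**Figure D4:**
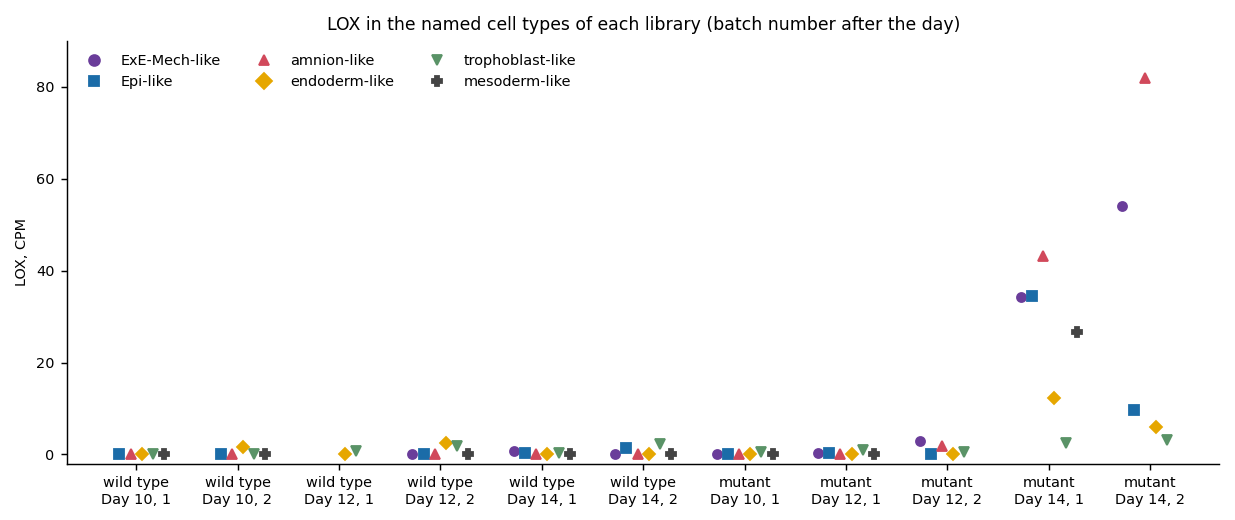
CPM of LOX in the named cell types of the 11 libraries (vertical axis, linear), except transition-like cells, which are not drawn. Each symbol is the sum over the cells of 1 type in 1 library. The Day 14 mutant libraries have 34.3 and 54.0 CPM in the ExE-Mech-like sums, and their amnion-like sums have 43.2 and 82.0 CPM, whereas no named type of the other libraries exceeds 2.88 CPM.

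In the amnion-like cells of Day 14, LUM, CCDC80, VCAN and POSTN were highest in the mutant library of batch 2. There, cluster 2 (30 cells) had 156, 41.1, 69.2 and 30.3 CPM of them. Cluster 9 (17 cells) had 3.89, 0, 7.77 and 0 CPM in the same order, so the levels were not shared by the type. Of its 47 amnion-like cells, 10 had a UMI of LUM and 2 had one of POSTN (14 UMIs). LUM was 3.31 and 0 CPM in the wild types and 10.2 and 101 CPM in the mutants (edgeR adjusted p = 0.0749). CCDC80 was 0.827 and 0 CPM in the wild types and 12.7 and 26.4 CPM in the mutants (adjusted p = 0.0729). In the mutant library of batch 2, LUM, CCDC80, VCAN and POSTN stood at 8.06%, 8.74%, 6.41% and 2.87% of their levels in its ExE-Mech-like cells, LOX at 152% and FBN2 at 40.1%. ExE-Mech markers summed to 869 and 1285 CPM in the wild-type amnion-like cells and to 1577 and 1207 CPM in the mutant ones, and the part of such RNA in the values of LUM and CCDC80 was not tested.

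Mesoderm-like cells at Day 14 were compared with 1 mutant library of 8 cells, whose spread is assumed to be that of the other groups. It had 320.1 CPM of LUM and 347 CPM of VCAN, against 0 and 26.2 CPM and 23.7 and 13.1 CPM in the wild types. None of 7 members passed (edgeR adjusted p = 0.0373 for VCAN and 0.549 for LUM), where 0% of 7948 genes were called, 586 had an unadjusted p below 0.05 and DESeq2 called 16, VCAN among them (adjusted p = 0.00712). With the batch as a block 62 genes were called, LUM, VCAN, POSTN and CCDC80 among them, but with 1 mutant library that call has no replicate check, and in POSTN the wild types had all their UMIs in 1 cell. ExE-Mech markers summed to 1369 CPM in these 8 cells and to 221 and 727 CPM in the wild types, and their part in the difference was not tested.

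In trophoblast-like cells the members were low, and none was called between Day 14 and Day 10 in wild type (0.776% of 15076 genes called, 0.577% higher and 0.199% lower, 3759 genes at an unadjusted p below 0.05). LUM had no UMI in the Day 10 wild types and 0.334 and 12.1 CPM in those of Day 14, and POSTN 0 UMIs and 0.207 and 13.9 CPM. LOX had 0 and 0.037 CPM at Day 10 and 0.278 and 2.32 CPM at Day 14, and CCDC80 1.69 and 0.48 CPM and 3.92 and 6.76 CPM. DESeq2 called these 4 of the 8 members, with 1616 genes called in all, and edgeR with the batch as a block called 21 genes. The ExE-Mech markers summed to 38.6 and 49.2 CPM in these trophoblast-like cells at Day 10 and to 35.2 and 120.1 CPM at Day 14, and COL3A1, a collagen chain high in ExE-Mech-like cells, went from 0 CPM in both to 1.13 and 26.0 CPM. The Day 10 wild types had no ExE-Mech-like cells, and the part of such RNA in the values was not tested. The genotype difference at Day 14 called no member in trophoblast-like cells either (0% of genes, 1959 at an unadjusted p below 0.05, 248 by DESeq2). A change of the genotype difference between Day 12 and Day 14 was not called for any member in endoderm-like or trophoblast-like cells (0% of genes, 460 and 1353 genes at an unadjusted p below 0.05, 4 and 75 by DESeq2).

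The ExE-Mech-like cells were not uniform. In 7 libraries they fell into 2 to 9 clusters of at least 20 cells, and clusters of 1 library share its embryos. The Day 10 mutant library had 1 such cluster. From the lowest to the highest cluster of a library, FBN2 varied by 1.14 to 2.25 times, CCDC80 by 1.74 to 3.57 times, NID2 by 1.31 to 4.93 times and VCAN by 1.35 to 6.95 times. POSTN varied by 2.27 to 20.4 times and LUM by 2.22 to 10.7 times. In the Day 14 libraries with that cluster, cluster 25 had the highest POSTN level, at 1815 CPM in the wild type of batch 2 and 660.3 and 1111 CPM in the mutants. The same cluster also had the highest or second highest LUM and VCAN levels, at 1296, 1693 and 1645 CPM of LUM and 963, 1137 and 979 CPM of VCAN. CCDC80 did not follow this order. It was highest in cluster 19 of the wild type (451 CPM), cluster 20 of the mutant of batch 1 (983 CPM) and cluster 24 of the mutant of batch 2 (516 CPM).

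LOX had counts in each of these mutant ExE-Mech-like clusters of Day 14, but its level was far more unequal in batch 1 than in batch 2. It measured 4.21 to 86.9 CPM over the 9 clusters of batch 1, a range of 20.6 times. Over the 7 clusters of batch 2 it measured 27.6 to 81.3 CPM, a range of 2.95 times. In batch 1 the highest values were in cluster 20 (86.9 CPM, 412 cells) and cluster 2 (68.1 CPM, 770 cells), clusters that held 1 and 2 wild-type cells in all. Clusters 15 and 24, which held wild-type cells of both batches, had 9.10 and 4.21 CPM in the mutant of batch 1 and 60.7 and 39.4 CPM in that of batch 2, against 0 to 0.561 CPM in the wild types. At Day 12, cluster 30 of the mutant of batch 2 stood out at 27.3 CPM of LOX in 50 cells, where the other 6 clusters had 0.361 to 5.74 CPM.

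**Figure D5:**
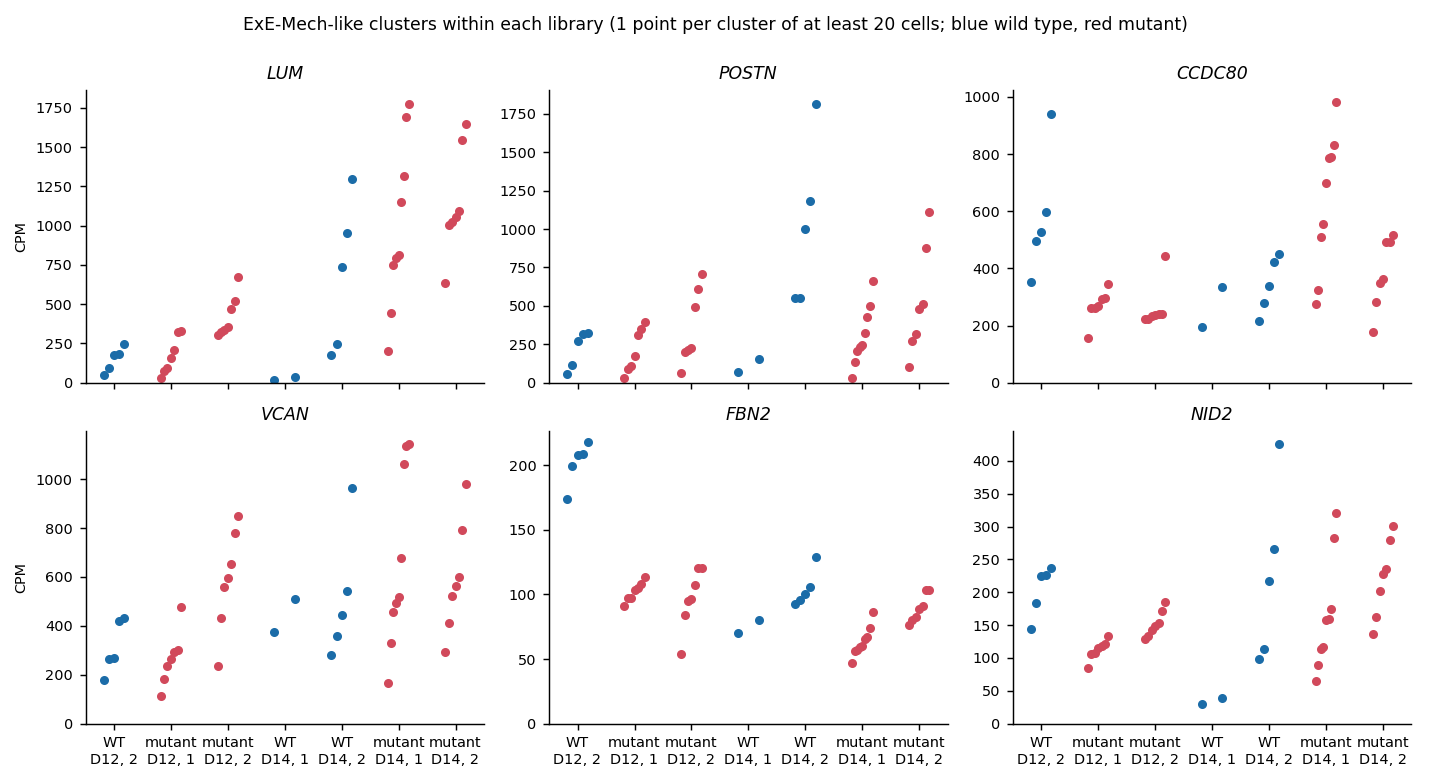
CPM of 6 members in the ExE-Mech-like clusters of 7 libraries (linear vertical axes from 0, which differ between genes); each point is 1 cluster of at least 20 cells, placed from left to right by its value. The highest and lowest clusters of 1 library differ by at most 2.25 times for FBN2, and POSTN and LUM reach 1815 and 1775 CPM.

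The pattern of each member over cell types and libraries was compared with that of 790 other named genes by Pearson's r of log2(CPM + 1) over 41 sums of a lineage in a library. The sums share libraries, depth and cell types, so r is a description. POSTN lay nearest to MMP28 (r = 0.969), COL6A3 (0.969) and COL5A2 (0.951), a secreted protease and 2 collagen chains. CCDC80 was nearest to CREB3L1 (0.958), COL6A3 (0.95) and MMP28 (0.948). FBN2 was nearest to ISM1 (0.917), SNAI2 (0.894), a transcription factor of mesenchymal cells, and PMP22 (0.875). NID2 was nearest to CAPN2 (0.937) and to COL4A1 (0.935) and COL4A2 (0.931), which encode the type IV collagen chains of basement membrane.

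LUM was nearest to CTHRC1 (0.874), COL6A2 (0.867) and EGFLAM (0.862), VCAN to GNAS (0.929), OSBPL1A (0.916) and CD81 (0.916), and HAS2 to CRABP2 (0.967), a retinoic acid binding protein, MDK (0.941) and GPSM3 (0.935). LOX had no close neighbour among the 790 genes compared, and its levels were near 0 in nearly all libraries except the mutants of Day 14. Most measured genes had no symbol in the study's gene lists and were not compared. The nearest to LOX were ERO1A (0.698), an oxidoreductase of the endoplasmic reticulum, FAM162A (0.677) and AC093512.2 (0.659). Among the members themselves the closest pair was POSTN and CCDC80 (r = 0.930), followed by CCDC80 and FBN2 (0.838), NID2 and VCAN (0.821), and VCAN and HAS2 and POSTN and FBN2 (0.820 each). The lowest r was that of HAS2 and LOX (0.109).

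A list of 45 other matrix genes was examined beside the members. Between ExE-Mech-like and endoderm-like cells 39 were tested, of which 19 were higher and 9 lower in ExE-Mech-like cells, with a median log2 difference of 0.66. Over all genes 39.4% were called in this comparison, 21.2% higher and 18.2% lower. Collagen chains were mostly higher, 7 of 10 tested against 1 lower, led by COL6A3 and COL3A1 (log2 differences 6.49 and 6.27). The chain that was lower was COL9A2 (-10.30), which had the largest difference of the list. It had 50.6 to 458 CPM over the endoderm-like sums and at most 0.619 CPM over the ExE-Mech-like ones. Of the genes of collagen folding and processing, 5 of 7 were higher and none lower. Glycoproteins of fibres and basement membrane split, with 2 of 11 higher and 3 lower. Proteoglycans and hyaluronan-binding genes split evenly, with 2 of 5 in each direction, and so did proteases and their inhibitors, with 3 of 6 in each direction.

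Few of the 45 were called elsewhere. Of 38 tested in wild-type Epi-like cells, MFAP2 (2.07), a microfibril protein, and ADAMTS19 (2.92) rose from Day 10 to Day 14, where 2.15% of all genes were called. Of 43 tested in wild-type trophoblast-like cells, where 0.776% of all genes were called, 2 rose. HAPLN1, which links hyaluronan to proteoglycans, rose between Day 10 (17.0 and 26.2 CPM) and Day 14 (142 and 169 CPM; log2 difference 2.83). TIMP1, an inhibitor of matrix proteases, had 0.298 and 0.296 CPM and then 6.24 and 14.5 CPM (log2 difference 5.06), beside the higher COL3A1 levels given for the same cells. In Epi-like cells of Day 14, P4HA1 (2.63), a prolyl hydroxylase of collagen, was higher in the mutants, at 525 and 831 CPM against 167 and 63.1 CPM in the wild types (edgeR adjusted p = 0.00608). It was the 1 gene of the list called between genotypes, of 38 tested in these cells, where 0.809% of all genes were called. The median log2 genotype difference at Day 14 over the list was 1.02 in ExE-Mech-like, 0.27 in endoderm-like, 0.79 in trophoblast-like, 1.03 in Epi-like and 1.30 in amnion-like cells, against -0.03 to 0.06 over all genes tested. In mesoderm-like cells it was 1.90 against -0.14 over all genes, with 1 mutant library of 8 cells, in which the ExE-Mech markers summed to 1369 CPM against 221 and 727 CPM in the wild types. The list could hold only genes named in the study's supplementary gene lists, and it was chosen with earlier results of these data known. These medians therefore describe the list and do not test it as a set. The part of ExE-Mech RNA in the medians of types other than ExE-Mech-like was not tested.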

How the data were processed

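Reads were aligned and counted by the authors with Cell Ranger 3.1.0, as the submitters' processing notes name it, against the Ensembl Macaca_fascicularis_5.0 gene models, and only 3′ ends were read. The authors deposited 2 matrices of the same genes: counts of UMIs as Cell Ranger gave them, and estimated counts, deposited after correction for free RNA with SoupX, which are whole numbers. The correction removed 0.196 to 8.77% of the UMIs of a library. At Day 12 and Day 14 it removed 3.22 to 8.77% in the mutants and 0.457 to 2.98% in the wild types, without overlap. The corrected matrix was used, and the uncorrected counts as an alternative. It held 33330 cells with 36654977 to 164808415 UMIs per library, and 209 further cells of the uncorrected matrix were not used. No cell was removed here and no doublet caller was run. A pair of libraries shared at most 16 barcodes, and no pair shared more than 0.52% of the smaller library.

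Symbols were matched to the Ensembl identifiers through the supplementary gene lists of the study. Cells of each day were integrated over libraries and clustered with Seurat 5.3.0 and uwot 0.2.3 in R 4.3.3 (5000 variable genes, 30 dimensions, resolution 0.8, seed 42). The members, the other matrix genes and ISL1 were left out of the variable genes. Clusters were named from fixed marker lists. The condition that a cluster stays unnamed when its 10 leading genes hold more markers of another list was added after the cluster names had been seen. UMIs were summed per library and type (at least 5 cells) and tested with edgeR 4.0.16 (quasi-likelihood, TMM, filterByExpr, two-sided, Benjamini-Hochberg over all genes tested, false discovery rate 1%) in 1 fit per type over all libraries, and with the library as a block between types. Fits of these steps were tested on simulated data. DESeq2 1.42.0 was an alternative. CPM are from unnormalized library sums. The shares of cells given at 5000 UMIs are the values expected if each cell were thinned to that depth. Nearest genes had a mean of at least 10 CPM, and 1 CPM was added before taking log2. A count of 0 was read as at most 3 counts. Libraries hold 1 embryo or a pool of up to 3, so p-values measure the spread between libraries.

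Replicate numbers are the batch labels, which pair the libraries of a day. The deviations of same-batch libraries from their group means correlated at 0.0154 to 0.479 over 3 pairs of groups in ExE-Mech-like cells, at -0.0729 to 0.222 over 10 pairs in endoderm-like cells and at -0.357 to 0.226 over 10 pairs in trophoblast-like cells. Between the genotypes of Day 12 and of Day 14 they correlated at 0.0478 and -0.0573 in endoderm-like and 0.00401 and 0.053 in trophoblast-like cells. In ExE-Mech-like cells the value at Day 14 was 0.143. That batches pair the libraries was thus assumed. The members and the gene lists were chosen with earlier results of these data known. Named genes are the 8 members, the 3 called genes of the other matrix lists with the largest difference in each comparison, the 3 genes nearest to each member, and ISL1. Sequences and coordinates are not shown, since no genome of this build was used here.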

Additional observations from a re-analysis of the deposited data

Results flagged for a closer look

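LOX was also present in clusters that no marker list named. In the Day 14 mutant library of batch 1, cluster 35 held 186 cells with 350.4 CPM of LOX (443 UMIs, in 108 of the cells), where no named type of that library exceeded 43.2 CPM and the unnamed clusters of the wild types had 0 CPM. Its leading genes were IGFBP5, IGFBP2, COX4I2, NTS and EPCAM, and it held 187 cells in all, of which 1 was wild type. In that library it had 267 CPM of LUM and 96.5 CPM of ISL1. Over all libraries, ISL1 ran from 5.37 to 299.7 CPM in amnion-like cells, with the lowest value at Day 10 in wild type, and from 0.468 to 25.8 CPM in ExE-Mech-like ones. Every Day 14 amnion-like sum lay above the value of cluster 35, and the sum of the same library was the highest. The cells of cluster 35 in that library had a median depth of 4554 UMIs. In the Day 12 mutant library of batch 2, cluster 31 held 65 cells with 5.90 CPM of LOX (14 UMIs, in 9 of the cells), where no named type exceeded 2.88 CPM as a whole, but the ExE-Mech-like cluster 30 of that library had 27.3 CPM, so this cluster did not stand above all the named ones. The values come from 1 library each and have no replicate check.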

How the results depend on the processing

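The values here are the number of members called. Without a filter on low counts, 1 member was called between genotypes at Day 14 in ExE-Mech-like cells and 1 in endoderm-like cells (0 in each otherwise), 2 in Epi-like (1 otherwise), and 3 each in amnion-like and mesoderm-like cells (0 otherwise), where that setting called 158, 120, 378, 341 and 65 of all genes. That setting also called 3 in endoderm-like cells between Day 14 and Day 10 of wild type and 1 in ExE-Mech-like cells between Day 14 and Day 12 of the mutants (0 in each otherwise), with 302 and 164 of all genes. At a false discovery rate of 5%, genotype called 2 in Epi-like, 1 in amnion-like and 1 in mesoderm-like cells, and day called 1 in wild-type trophoblast-like cells, with 297, 66, 12 and 1240 of all genes. DESeq2 called 1 in mesoderm-like cells between genotypes and 4 in trophoblast-like cells between days. With the batch as a replicate block, 2 were called between genotypes in Epi-like and 4 in mesoderm-like cells, and it changed no other number of members called; without the library block, the difference of HAS2 between ExE-Mech-like and endoderm-like cells did not pass. For the genotype difference in Epi-like cells, 0 were called with at least 20 cells per library, with neighbours on principal components, with another UMAP seed, or with cluster names lacking the condition on leading genes, which was chosen after seeing the data, and leaving out a library gave 0 to 2. In amnion-like cells neighbours on principal components gave 1. For wild-type Epi-like cells between the days, a fit of only the groups compared gave 1, and leaving out a library gave 0 to 2 (2 otherwise). The cause of these changes was not tested. The remaining 180 values stayed within 1.5 times or were counts of 0 that stayed at 0. Some of these values were not members called but numbers of named cells or of members highest in ExE-Mech-like cells. Of the values for single members, 101 kept direction and call, 16 kept direction and lost the call, and none reversed. Over the settings that kept all libraries or set a minimum of cells, the number of all genes called was 3040 to 5186 between ExE-Mech-like and endoderm-like cells (3890 in the reported fit), 29 to 378 between genotypes in Epi-like cells (93), 75 to 735 between days in Epi-like cells (247) and 0 to 1616 between days in trophoblast-like cells (117). When each library was left out in turn, these numbers were 3182 to 3891, 28 to 106, 24 to 319 and 0 to 446, in the same order. The genotype difference in mesoderm-like cells could not be fitted with at least 20 cells, with another UMAP seed or without the mutant library, nor the change of the genotype difference in endoderm-like cells with at least 20 cells. Small sums limit the embryonic types, where the 3 counts that a 0 allows are worth up to 28.4 CPM in 1 library.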
